A study of Homo sapiens with 6 samples.

Results

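The transcripts described here encode nuclear-encoded subunits of oxidative phosphorylation, the mitochondrial pathway that makes ATP from electrons carried by NADH and succinate. Complexes I, III and IV pump protons while they pass electrons to oxygen, complex II feeds in electrons from succinate without pumping, and complex V, the ATP synthase, uses the proton gradient to make ATP. A few core subunits are encoded by mitochondrial DNA and all the others by nuclear genes. Of 45 genes listed for complexes I to V, 41 were measured by 85 probe sets that the platform annotation assigns to 1 gene each, out of 18338 genes and 41751 probe sets in all. NDUFA4, NDUFS8, SDHB and UQCRFS1 had no such probe set and were not analysed here. NDUFS8 was named together with other genes by 3 probe sets. Counts, medians and means by complex or module below cover the 41 measured genes of this list only. Further subunits of the same complexes are described later.

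The samples were 2 stable Tet-On lines of HEK293, an established human embryonic kidney cell line: a line carrying a myocilin vector (3 arrays) and a line carrying a control vector (3 arrays), hybridised to Affymetrix HG-U133 Plus 2.0 arrays. Both lines are described as kept with hygromycin B and G418 and treated with doxycycline, the drug that switches on the inserted gene in Tet-On cells, at 0.2 or 1 µg/ml for 48 h. The dose of each array is not given, and a description that names doxycycline is attached to the myocilin samples only, so exposure to the drug and the identity of the line cannot be told apart from the inserted gene. Each vector is represented by 1 line, and nothing in the labels names separate cultures behind its 3 arrays. The p-values therefore measure array-to-array spread within these lines, which may be technical only.

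Values are the authors' centred values, read as log2; they show differences between arrays and not how abundant a transcript is, so levels of different genes were not compared and HEK293 markers could not be checked. Every array had a median of 0, and the standard deviations over probe sets were 0.169 to 0.197. MYOC, the inserted gene, read 0.21, 0.20 and 0.24 on the myocilin arrays, against -6.71, -8.32 and -8.29 on the control arrays (7.99 ± 0.35, SE, limma adjusted p = 4.70e-06). Under quantile normalisation that difference was 5.09. All differences below are myocilin minus control, from limma fitted over all genes; a gene is called where its Benjamini-Hochberg adjusted p is under 0.05. "Rose" and "fell" are used of called genes.

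Transcripts of 3 of the 41 subunits fell in the myocilin line and 0 rose: NDUFV2 and NDUFS1 of complex I, and ATP5MC3 of complex V. Over all genes 15.6% passed the threshold, 7.35% lower and 8.28% higher, so 7.32% of the subunits against 15.6% of genes were called. At an unadjusted p under 0.05, 6 subunits were lower and 3 higher, against 13.7% and 16.3% of all genes. The arrays of the lines did not overlap for 13 subunits (31.7%), against 34.9% of all genes. The median log2 difference of the subunits was -0.02, with 20 above 0 and 21 below it, beside a median of 0.02 over all genes. The median absolute difference was 0.105 for the subunits and 0.0979 for all genes. The 3 calls rest on the pooling of variances across genes in limma: with each gene's own variances 0 of the subunits, and 44 genes in all, were called. In RNA of whole cultures, fewer cells with a transcript and less of it per cell cannot be told apart.

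**Figure D1:**
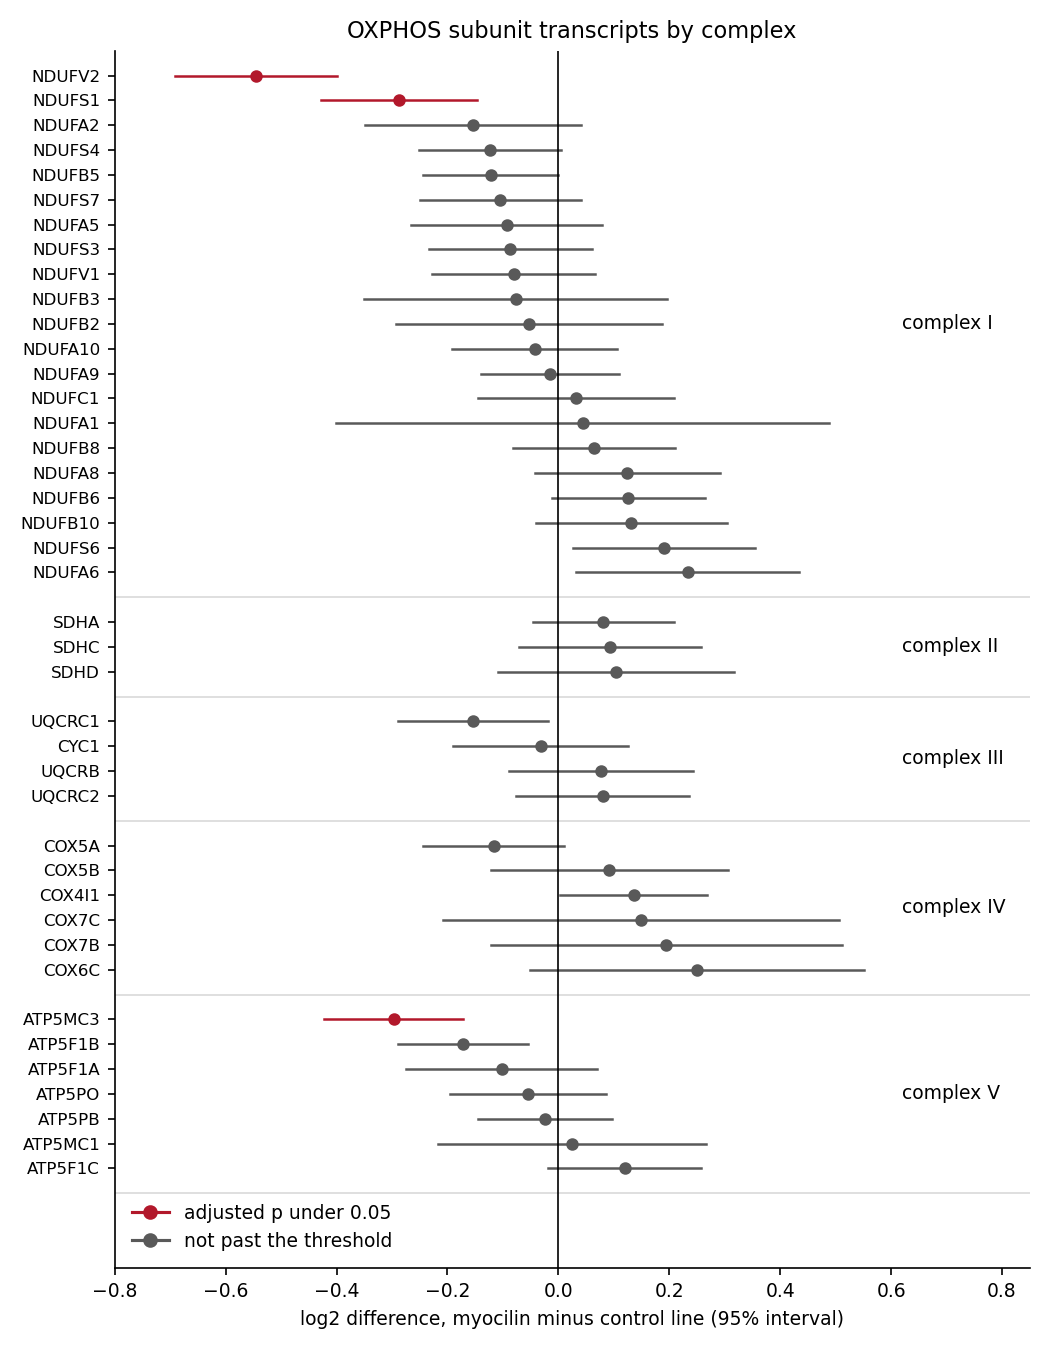
Log2 difference (myocilin minus control line, x axis) of each of the 41 measured subunit genes, grouped by complex, with the 95% interval of the limma fit as a line. NDUFV2 at -0.55, NDUFS1 at -0.29 and ATP5MC3 at -0.30 passed the threshold, and the other 38 lay between -0.17 and 0.25.

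Complex I oxidises NADH. In its peripheral arm the N module takes the electrons and the Q module hands them to ubiquinone, while a membrane arm pumps protons. NDUFV2, an iron-sulphur subunit of the N module beside the flavin site, read -0.32, -0.42 and -0.22 on the myocilin arrays, against 0.27, 0.22 and 0.19 on the control arrays. The groups lay apart by more than the spread within either line, with means of -0.32 ± 0.10 in the myocilin line and 0.23 ± 0.04 in the control line (SD, n = 3 each). A log2 difference of -0.55 ± 0.06 resulted (SE; limma adjusted p = 0.000919), a level 0.685 times that of the control line. It was measured by a single probe set, 202941_at.

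NDUFV2 lies on chromosome 18, where the other genes were lower as a whole: the median log2 difference of 272 genes outside the subunit list was -0.21, and 48.2% of them fell while 1.47% rose. Among 274 genes measured on that chromosome, 22 had a lower difference than NDUFV2. The median difference of its 50 nearest genes was -0.28. With the median of these neighbours subtracted on each array, NDUFV2 read lower in the myocilin line, with a difference of -0.27 ± 0.07 (limma adjusted p = 0.0401). That call was lost when any 1 of the arrays was left out, except the third myocilin array. ATP5F1A, the catalytic-head alpha subunit gene of complex V, lies on the same chromosome and did not pass the threshold. It read -0.03, -0.10 and -0.08 on the myocilin arrays and -0.02, -0.08 and 0.20 on the control arrays, which overlapped. Its difference was -0.10 ± 0.08 (SE, limma adjusted p = 0.414), and 0.09 with its neighbours subtracted. The gene value of ATP5F1A joins 2 probe sets that differed. On 213738_s_at the lines did not overlap, with a difference of -0.23 ± 0.07 (limma adjusted p over all probe sets 0.0509). On 1569891_at they overlapped, with a difference of 0.03 ± 0.12 (adjusted p = 0.911). The part of the chromosome-wide shift in the fall of NDUFV2 was not tested further.

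NDUFS1, the largest subunit of complex I and another iron-sulphur protein of the N module, read -0.14, -0.19 and -0.28 on the myocilin arrays, against 0.05, 0.15 and 0.05 on the control arrays. The lines did not overlap. The difference was -0.29 ± 0.06 (SE, limma adjusted p = 0.0146), a level 0.819 times that of the control line. The gene value joins 2 probe sets that differed: 236356_at was lower, with a difference of -0.51 ± 0.10 (limma adjusted p over all probe sets 0.00964) and 203039_s_at differed by -0.06 ± 0.07 (adjusted p = 0.609). On 236356_at the myocilin arrays read -0.23, -0.39 and -0.53, against 0.09, 0.27 and 0.03 on the control arrays. The gene's call was lost without the second control array (-0.25, adjusted p = 0.05001) and with 50 chromosomal neighbours subtracted (-0.21, adjusted p = 0.0518).

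Of the 6 measured N module genes on the subunit list 5 had a difference below 0, with a median of -0.14. Among these 6, 2 fell and 0 rose, where 7.35% of all genes fell. These 2 are NDUFV2, on chromosome 18, where 48.2% of genes outside the list fell, and NDUFS1, whose call was lost with neighbours subtracted. The other 4 were NDUFV1, the flavin-binding subunit (-0.08), NDUFA2 (-0.15), NDUFS4 (-0.12) and NDUFS6 (0.19), none past the threshold. The mean of the 6 genes was -0.10, -0.16 and -0.09 on the myocilin arrays and 0.10, 0.006 and 0.04 on the control arrays. NDUFV3, NDUFA7 and NDUFA12, N module genes outside the list, differed by 0.12, 0.10 and -0.09, none past the threshold. They were named after their values were seen.

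The 3 measured genes counted here with the Q module, NDUFS3, NDUFS7 and NDUFA5, differed by -0.10 to -0.09 and none passed. NDUFA9, on the list but not counted with either module, differed by -0.02 and did not pass. NDUFS7, an iron-sulphur subunit near the quinone site, was called through 1 of its 2 probe sets. On 211752_s_at the myocilin arrays read -0.14, -0.17 and -0.03, against 0.35, 0.19 and 0.18 on the control arrays, a difference of -0.35 ± 0.08 (limma adjusted p over all probe sets 0.0211). The other probe set, 242168_at, read 0.23, 0.00 and 0.08 on the myocilin arrays, against 0.00, 0.00 and -0.12 on the control arrays, a difference of 0.14 (adjusted p = 0.316). The gene value of NDUFS7 was -0.10 (adjusted p = 0.317). With the most variable probe set standing for each gene, NDUFS7 was called (-0.35, adjusted p = 0.0240), and without _x_at and _s_at probe sets it read 0.14.

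Of the 21 measured complex I genes on the subunit list, 2 fell and 0 rose, with a median of -0.05 and a range of -0.55 to 0.23. As a share 9.52% were called, all lower, where 15.6% of all genes were called and 7.35% fell. Among these 21 the highest difference was that of NDUFA6, a supernumerary subunit, whose arrays did not overlap (0.15, 0.22 and 0.31 in the myocilin line, 0.12, -0.20 and 0.07 in the control line), but it did not pass the threshold (0.23 ± 0.09, limma adjusted p = 0.112). It was named after its value was seen. NDUFB10, a membrane-arm subunit on chromosome 16, read 0.07, -0.04 and 0.19 on the myocilin arrays and 0.03, -0.16 and -0.05 on the control arrays. The lines overlapped, and it differed by 0.13 ± 0.08 (adjusted p = 0.287) and by 0.01 with its neighbours subtracted.

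ATP5MC3 encodes the c subunit of the ATP synthase, the protein that forms the rotating membrane ring. It read -0.11, -0.06 and -0.15 on the myocilin arrays, against 0.17, 0.23 and 0.17 on the control arrays. The arrays of the lines were separate, with means of -0.10 ± 0.05 in the myocilin line and 0.19 ± 0.03 in the control line (SD, n = 3 each). The difference was -0.30 ± 0.06 (SE, limma adjusted p = 0.0079), a level 0.814 times that of the control line. All of its 3 probe sets were lower, with differences of -0.49 ± 0.10 for 228168_at (adjusted p over all probe sets 0.0138), -0.23 for 207508_at (adjusted p = 0.0646) and -0.18 for 207507_s_at (adjusted p = 0.14). With 50 chromosomal neighbours subtracted the difference was -0.19 (adjusted p = 0.0497), and that call was lost with any 1 array left out.

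ATP5MC1, another gene for the same mature c protein, read 0.05, 0.00 and 0.04 on the myocilin arrays, against 0.26, -0.23 and -0.009 on the control arrays. The control arrays spanned the myocilin ones. Its difference was 0.03 with a 95% interval of -0.22 to 0.27 (limma adjusted p = 0.906). ATP5MC2, also a gene for this protein but outside the subunit list, read -0.07, -0.09 and 0.01 on the myocilin arrays, against 0.11, 0.06 and 0.11 on the control arrays. The lines did not overlap, but its difference of -0.14 ± 0.06 was not called (limma adjusted p = 0.122). ATP5MC2 was named after its value was seen. Whether ATP5MC3, ATP5MC1 and ATP5MC2 differ in response was not tested. ATP5F1B, the catalytic beta subunit of the head, read -0.05, -0.07 and -0.05 on the myocilin arrays, against 0.10, 0.14 and 0.11 on the control arrays. The arrays did not overlap, and the difference of -0.17 ± 0.05 lay just outside the threshold (adjusted p = 0.0554). It passed under quantile normalisation (adjusted p = 0.0438) and with array weights (adjusted p = 0.0488), the only 2 of 9 other settings that called it. With 1 array left out ATP5F1B was called in 0 of 6 fits (limma adjusted p = 0.0972 to 0.135). With neighbours subtracted its difference was -0.11 (adjusted p = 0.198). Of the 7 complex V genes on the subunit list 1 fell (14.3%) and 0 rose, with a median of -0.05. ATP5MK, a complex V gene outside that list, rose and is described below. Of all genes 15.6% were called and 7.35% fell. The peripheral stalk genes ATP5PB and ATP5PO differed by -0.02 and -0.05, and ATP5F1C, the central gamma subunit, by 0.12.

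**Figure D2:**
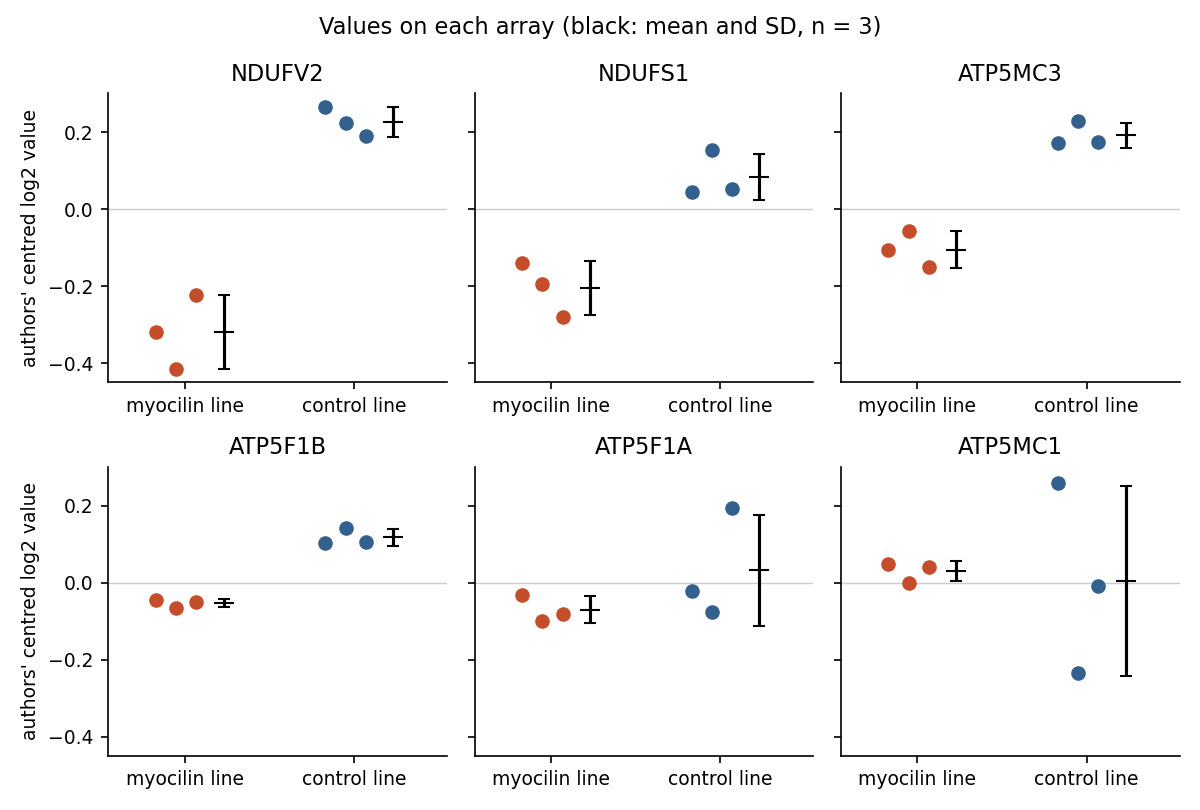
Authors' centred log2 value (y axis) on each array of the myocilin line (left) and the control line (right) for 6 subunit genes, with the mean and SD (n = 3) in black. For NDUFV2, NDUFS1, ATP5MC3 and ATP5F1B all myocilin arrays lie below all control arrays, while for ATP5F1A and ATP5MC1 the lines overlap.

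In complex II, which is also an enzyme of the citric acid cycle, none of 3 measured genes passed the threshold in limma, and 0 had an unadjusted p under 0.05. SDHA, the flavoprotein that oxidises succinate, read -0.05, -0.03 and 0.01 on the myocilin arrays, against -0.15, -0.11 and -0.05 on the control arrays (0.08 ± 0.06, limma adjusted p = 0.38). SDHC, a membrane anchor, read 0.18, -0.08 and 0.07 on the myocilin arrays, against -0.08, 0.02 and -0.04 on the control arrays (0.09 ± 0.07, adjusted p = 0.444). SDHD, the other anchor, differed by 0.10. In each of these genes the lines overlapped.

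In complex III, which passes electrons to cytochrome c, none of 4 measured genes on the list passed in limma, and 1 had an unadjusted p under 0.05. UQCRC1, a core subunit, read -0.07, -0.17 and -0.05 on the myocilin arrays, against 0.10, 0.00 and 0.07 on the control arrays. The lines did not overlap, but the difference of -0.15 ± 0.06 was not called (limma adjusted p = 0.12). UQCRC2, the other core subunit, on chromosome 16, read 0.05, 0.03 and -0.10 on the myocilin arrays, against -0.19, -0.02 and -0.04 on the control arrays, which overlapped (0.08 ± 0.07, adjusted p = 0.492). Its probe sets went both ways, 200883_at at 0.24 (adjusted p = 0.0540), 212600_s_at at 0.23 (adjusted p = 0.066) and 241755_at at -0.22 (adjusted p = 0.378). The cytochrome c1 gene CYC1 differed by -0.03 and UQCRB by 0.08.

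In complex IV, which reduces oxygen to water, none of 6 measured genes on the list passed in limma, and 1 had an unadjusted p under 0.05. The median was 0.14, and 5 of 6 differences lay above 0. Without the second control array the complex IV median was 0.011, below the 0.10 of complex II. COX4I1, the largest nuclear-encoded subunit, on chromosome 16, read 0.08, -0.02 and 0.09 on the myocilin arrays, against -0.04, -0.13 and -0.09 on the control arrays. Its arrays did not overlap between the lines (0.14 ± 0.06, limma adjusted p = 0.16), and the difference was 0.02 with its neighbours subtracted. On chromosome 16 the median of 774 genes outside the list was 0.14, and 27.6% of them rose. COX5A differed the other way, at -0.12, -0.18 and -0.09 on the myocilin arrays against -0.06, -0.005 and 0.02 on the control arrays (-0.12 ± 0.06, adjusted p = 0.203).

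Other complex IV genes had a wide spread between control arrays. COX6C, with the highest difference of all 41 genes, read 0.21, 0.02 and 0.22 on the myocilin arrays, against 0.23, -0.37 and -0.16 on the control arrays. COX7C read 0.09, -0.19 and 0.08 on the myocilin arrays, against 0.20, -0.53 and -0.13 on the control arrays, while COX7B read 0.27, 0.009 and 0.26 on the myocilin arrays and 0.29, -0.33 and -0.009 on the control arrays. All of these were low on the second array of each line, and the lines overlapped. Their differences of 0.25 ± 0.13, 0.15 ± 0.16 and 0.19 ± 0.14 (SE; limma adjusted p = 0.248, 0.583 and 0.398) did not pass. Among the complex I genes on the list NDUFA1 showed the widest spread, at 0.20, -0.16 and 0.14 on the myocilin arrays against 0.50, -0.42 and -0.04 on the control arrays (0.04 ± 0.20). These 4 genes were named after their values were seen.

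The low second array was shared by many subunits. In the myocilin line the second array was the lowest of its line for 28 of 41 genes, against 36.8% of all genes, and in the control line for 25 of 41, against 35.7%. The median deviation of the subunits from their own line's mean was 0.01, -0.05 and 0.04 on the myocilin arrays and 0.05, -0.06 and 0.01 on the control arrays, beside a between-line median of -0.02. Array numbers within a line follow accession order and do not pair arrays across lines. Without the first control array the median difference was 0.05, and without the second it was -0.05.

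**Figure D3:**
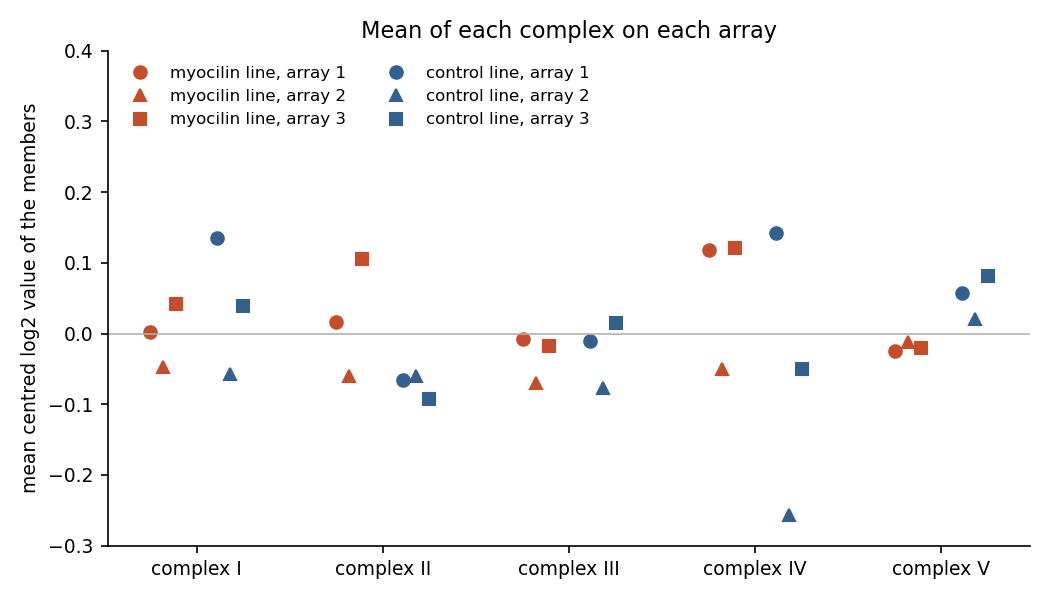
Mean centred log2 value (y axis) of the measured subunits on the list, by complex and array. Myocilin arrays lie left and control arrays right of each tick, with 1 symbol per array number. The control arrays of complex IV run from -0.26 on array 2 to 0.14 on array 1, and the 3 complex V means of the myocilin line lie below those of the control line.

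At the level of probe sets, 4 of 85 fell and 0 rose (those of NDUFV2, NDUFS1, ATP5MC3 and NDUFS7 named above), where 11% of all probe sets passed and 5.56% were lower. Of 25 subunits with more than 1 probe set, 7 had probe sets over 0.3 log2 units apart: NDUFS1, ATP5MC3, NDUFS7 and UQCRC2 as described, UQCRB (-0.20 to 0.25), NDUFA10 (-0.20 to 0.11) and NDUFC1 (-0.12 to 0.19). For the last 3 no probe set passed the threshold. The 5 probe sets that name a subunit together with another gene, of NDUFS8, NDUFS3 and SDHA, differed by -0.26 to 0.08 and none passed.

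**Figure D4:**
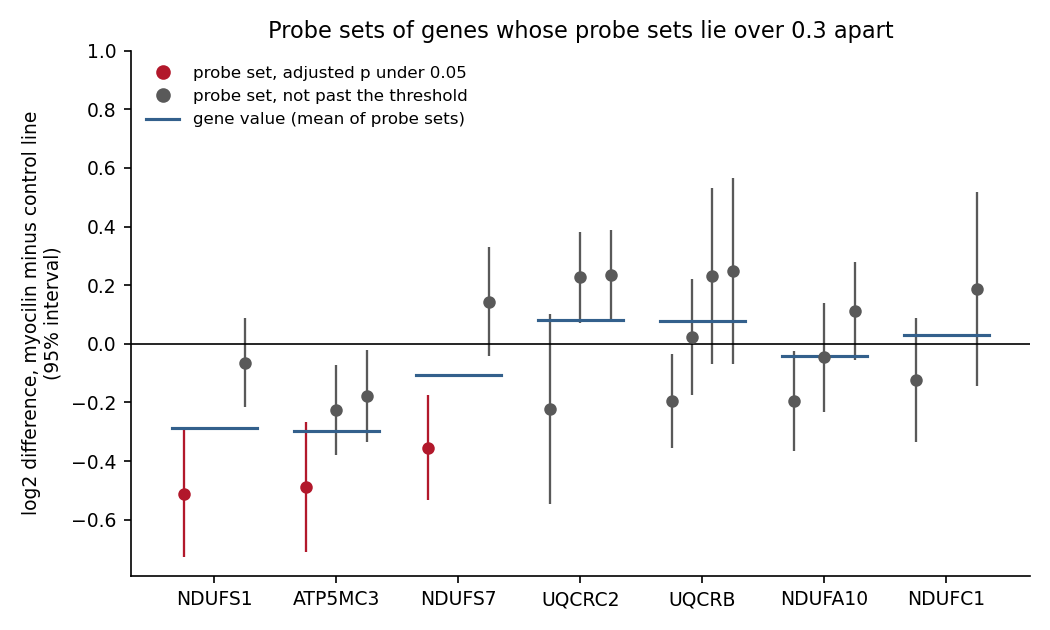
Log2 difference (myocilin minus control line, y axis) with 95% interval for each probe set of the 7 subunit genes whose probe sets lie over 0.3 apart, and the gene value as a blue bar. In NDUFS1, ATP5MC3 and NDUFS7 a single probe set passed the threshold, at -0.51, -0.49 and -0.35.

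With 50 chromosomal neighbours subtracted from each gene, 2 of the 41 subunits fell, NDUFV2 and ATP5MC3, and 0 rose, where 11.4% of all genes passed and 6.06% were lower. None of the 38 subunits that missed the threshold passed in this form. The subunits on chromosome 16, COX4I1, NDUFB10 and UQCRC2, at 0.08 to 0.14 before subtraction, read -0.05 to 0.02 after it.

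**Figure D5:**
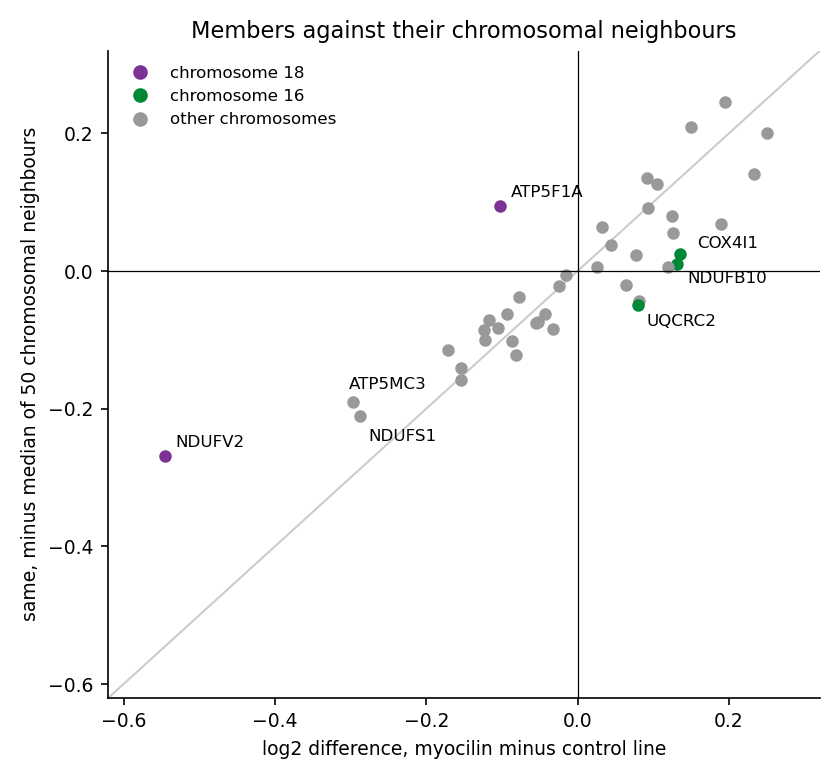
Log2 difference of each subunit gene (x axis) against the same difference after subtracting the median of 50 chromosomal neighbours on each array (y axis); the diagonal marks equal values. NDUFV2 moves from -0.55 to -0.27 and ATP5F1A from -0.10 to 0.09, both on chromosome 18.

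Many genes of this pathway are known to be bound by the factors NRF1, GABPA (of the ETS family) and YY1. RefSeq promoter windows of GRCh38.p14, 250 bases before to 50 after a transcript start, were found for 37 of the 45 genes (45 windows), and searched on both strands for an NRF1 core (GCGCA and GCGC with any 1 base between them), CCGGAAG (ETS) and AAGATGGC (YY1). Of these windows, 17.8% held the NRF1 letters, 17.8% the ETS letters and 20% the YY1 letters, against 5.78%, 10.3% and 2.89% of all 35116 windows. The median GC content was 60.3% in the subunit windows and 58.7% in all windows, and no subunit window held an ETS and a YY1 match that overlapped. The 2 promoters of fallen genes in the table are shown beside that of SDHA, which holds the most NRF1 matches (4) and was not called. Capitals mark a match, and the 250 bases before the start are printed, for NDUFS1 those of the start farther upstream of 2.
NDUFV2, chr18:9102449-9102698, plus strand: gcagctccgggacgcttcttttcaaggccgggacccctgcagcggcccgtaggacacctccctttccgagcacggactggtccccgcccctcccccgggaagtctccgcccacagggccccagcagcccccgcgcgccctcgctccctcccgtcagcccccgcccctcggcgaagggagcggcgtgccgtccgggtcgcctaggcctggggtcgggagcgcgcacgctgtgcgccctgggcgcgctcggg
NDUFS1, chr2:206159445-206159694, minus strand: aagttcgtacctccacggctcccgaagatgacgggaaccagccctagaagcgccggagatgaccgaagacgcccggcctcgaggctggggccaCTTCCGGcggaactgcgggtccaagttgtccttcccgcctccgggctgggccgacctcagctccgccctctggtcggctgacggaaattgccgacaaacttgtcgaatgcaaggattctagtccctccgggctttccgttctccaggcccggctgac
SDHA, chr5:218070-218319, plus strand: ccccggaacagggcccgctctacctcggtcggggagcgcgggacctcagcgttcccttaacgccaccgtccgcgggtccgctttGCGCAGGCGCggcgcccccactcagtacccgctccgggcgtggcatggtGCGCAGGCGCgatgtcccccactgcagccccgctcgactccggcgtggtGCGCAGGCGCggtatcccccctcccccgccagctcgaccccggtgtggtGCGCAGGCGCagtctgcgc
NDUFV2 held none of the 3 motifs in its window, NDUFS1 held 1 ETS match, and the window of ATP5MC3 was not in the table. Measured genes with the NRF1 letters had a median difference of 0.08 (7 genes, 0 called) and those without -0.02 (27 genes, 2 called). For the ETS letters the medians were 0.04 (7 genes, 1 called) and -0.02 (27 genes, 1 called), and for the YY1 letters -0.04 (8 genes, 0 called) and 0.04 (26 genes, 2 called). Over all genes 15.6% were called, and whether genes with and without a motif differ was not tested. The factors' own transcripts, named here for their motifs, differed by 0.09 for NRF1, -0.10 for GABPA and -0.10 for YY1, none past the threshold.

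Other genes of the pathway were taken from lists written for this comparison. Of 34 further structural subunits 1 rose and 1 fell (5.88% called, against 15.6% of all genes), with a median of 0.07. ATP5MK, a small membrane subunit of the ATP synthase, read 0.57, 0.26 and 0.52 on the myocilin arrays, against 0.23, -0.60 and -0.18 on the control arrays (0.63 ± 0.18, limma adjusted p = 0.0404). COX7A2L, a factor that joins complexes III and IV into supercomplexes, read 0.01, 0.05 and -0.05 on the myocilin arrays, against 0.22, 0.21 and 0.22 on the control arrays (-0.21 ± 0.06, adjusted p = 0.0322). Neither call held with chromosomal neighbours subtracted. The COX7A2L call was also lost with any 1 array left out, and that of ATP5MK in 5 of 6 fits with 1 array left out. COX7A2L was measured by 1 probe set, so other choices of probe sets left its own values unchanged, at -0.21. Its call was still lost in the limma fits without _x_at and _s_at probe sets (adjusted p = 0.0543) and with the most variable probe set of each gene (adjusted p = 0.102). Of 7 measured transcripts of mitochondrial DNA, none passed in limma (0 at an unadjusted p under 0.05), with differences of -0.06 for ND4 to 0.20 for ND6.

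Assembly factors, which build the complexes without being part of them, were called in 23.2% of cases: 9 of 56 rose and 4 fell (7.14%), with a median of -0.008, where 15.6% of all genes were called, 8.28% higher and 7.35% lower. Whether this share differs from that of the subunits was not tested. COX20, which helps the mitochondrially made subunit COX2 mature into complex IV, read -0.40, -0.48 and -0.55 on the myocilin arrays, against 0.30, 0.39 and 0.36 on the control arrays. The lines were far apart, with a difference of -0.83 ± 0.06 (SE, limma adjusted p = 6.58e-05), a level 0.564 times that of the control line. SCO1 and SCO2, copper chaperones of complex IV, rose by 0.43 ± 0.08 and 0.55 ± 0.09 (adjusted p = 0.00606 and 0.00332), and COX19, another factor of complex IV assembly, fell by 0.40 ± 0.07 (adjusted p = 0.00615). With neighbours subtracted 8 of the 13 calls held, 5 higher and 3 lower, these 4 among them.

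Among electron carriers, ubiquinone synthesis and nucleotide exchange 3 of 22 rose and 2 fell (22.7% called, against 15.6% of all genes), with a median of -0.09. CYCS, cytochrome c itself, which carries electrons between complexes III and IV, read -0.17, -0.08 and -0.12 on the myocilin arrays, against 0.09, 0.37 and 0.17 on the control arrays (-0.34 ± 0.08, limma adjusted p = 0.0177). The ubiquinone synthesis genes moved both ways: PDSS2, COQ7 and COQ4 rose by 0.39, 0.23 and 0.28, and COQ6 fell (-0.25 ± 0.07, limma adjusted p = 0.0445). Of the others, COQ2, COQ5 and COQ10A had differences of -0.20, -0.15 and -0.18, and COQ9 and COQ3 of 0.26 and 0.14, none past the threshold; COQ8A, COQ8B, COQ10B and PDSS1 lay between -0.10 and 0.12. COQ6 and these uncalled genes were named after their values were seen. The calls of CYCS, COQ7, COQ4 and COQ6 did not hold with neighbours subtracted (adjusted p = 0.0526, 0.298, 0.0640 and 0.0604), and those of COQ7 and COQ4 were each lost in 5 of 6 fits with 1 array left out. COQ7 read 0.060 without _x_at and _s_at probe sets (adjusted p = 0.723), and COQ4 0.64 with the most variable probe set; that choice ended the call of CYCS (adjusted p = 0.118).

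Of 18 genes of pyruvate entry and the citric acid cycle, which supply the electrons, 1 rose and 5 fell, with a median of -0.09, where 8.28% of all genes rose and 7.35% fell. IDH2, a mitochondrial isocitrate dehydrogenase, fell by 0.35 ± 0.07 on the log2 scale (limma adjusted p = 0.00825), PDHB, a subunit of pyruvate dehydrogenase, by 0.27 ± 0.05 (adjusted p = 0.00953), MDH2, the malate dehydrogenase, by 0.26 ± 0.06 (adjusted p = 0.0149) and DLD, the shared lipoamide dehydrogenase, by 0.25 ± 0.06 (adjusted p = 0.0235). Of the 6 calls 4 held with neighbours subtracted, all lower, and that of DLD did not (adjusted p = 0.0589; also lost in 4 of 6 fits with 1 array left out). The call of PDHB was lost without _x_at and _s_at probe sets (adjusted p = 0.0658), and those of IDH2 and DLD with the most variable probe set (adjusted p = 0.05002 and 0.0661).

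Of 17 regulators of mitochondrial biogenesis 4 rose and 0 fell (23.5% called), with a median of 0.08, where 8.28% of all genes rose. PPRC1, a coactivator related to PGC-1 alpha, read 0.52, 0.48 and 0.47 on the myocilin arrays, against -0.05, -0.11 and 0.00 on the control arrays (0.54 ± 0.06, limma adjusted p = 0.000504). TWNK, the mitochondrial DNA helicase, rose by 0.49 ± 0.06 (adjusted p = 0.00129), TFB1M, a mitochondrial rRNA methyltransferase, by 0.40 ± 0.06 (adjusted p = 0.00182), and PPARGC1B, a coactivator of the PGC-1 family, by 0.26 ± 0.06 (adjusted p = 0.0201). PPARGC1A, the gene of PGC-1 alpha itself, differed the other way. Its lines did not overlap, but the difference of -0.16 ± 0.06 was not called (limma adjusted p = 0.112). PPARGC1A was named after its value was seen. PPRC1 and TWNK lie on chromosome 10, where 21.3% of genes outside the subunit list rose, and TFB1M on chromosome 6, where 22.7% did. All 4 calls held with neighbours subtracted, and that of PPARGC1B was lost in 4 of 6 fits with 1 array left out and with the median of its probe sets (0.20, adjusted p = 0.0906).

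The intervals show what 3 arrays a line could resolve. For the 38 subunits that missed the threshold, the 95% intervals of the limma fit reached from -0.40 to 0.55 log2 units, and standard errors of all 41 ran from 0.05 to 0.20. The smallest difference called among all genes was 0.18, and 36 of the 41 subunits differed by less than 0.2.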

How the data were processed

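Transcripts were measured on 6 Affymetrix arrays, 3 of the myocilin line and 3 of the control line, grouped by source name. The deposited table gives 1 value per probe set and array, taken to be log2, a base judged from the numbers alone. How the authors corrected background, summarised probes and centred the values is not stated in the labels or file headers used here. The platform annotation assigned 37460 probe sets to 1 gene and 1728 to several, and 2563 were not listed; by Entrez identifier, 37416 were found in RefSeq (GRCh38.p14), the source of symbols and chromosomes. Probe sets of a gene were averaged (18338 genes). Lines were compared with limma 3.58.1 (lmFit, eBayes, two-sided) in R 4.3.3, over all genes or all probe sets, with Benjamini-Hochberg adjustment. The fit was tested on simulated data. Chromosomal neighbours were the 50 nearest measured genes. No filter on dim probe sets was possible on centred values, and the number of arrays limits precision.

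The subunits, lists, alternatives and tests were chosen with earlier results of these data known. Named with values were subunits called as a gene or through a probe set, the 2 smallest p in each complex, those on chromosomes 16 and 18, ATP5MC1 and ATP5MC3, up to 4 called genes of each list by p (otherwise 2), and MYOC. Alternatives were array weights, median centring, a trended robust eBayes, quantile normalisation, other summaries of probe sets, neighbour subtraction, a Welch test and each array left out.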

Additional observations from a re-analysis of the deposited data

How the results depend on the processing

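No paired analysis was possible because the labels give the lines no shared replicate numbers. The number of changed genes was 1878 with _x_at and _s_at probe sets dropped (fewer genes then enter), 44 by a Welch test on each gene's own variances, and 1613 to 2220 with 1 array left out. Of changed probe sets, 2281 to 3283 were left with 1 array out. The count of 3 changed subunits was 0 by the Welch test (adjusted p = 0.0994 for NDUFV2, 0.105 for NDUFS1 and 0.0771 for ATP5MC3) and 3 or 4 with 1 array out; NDUFS1 was lost and NDUFA2 gained without the second control array, and COX6C was gained, as higher, without the first. It was 4 under quantile normalisation and with array weights (ATP5F1B gained), and 4 with the most variable probe set per gene (NDUFS7 gained, -0.35). The 4 changed subunit probe sets were 2 to 4 with 1 array out, with 2 left without the first myocilin array, where those of ATP5MC3 and NDUFS7 were lost. They were 5 under quantile normalisation (213738_s_at of ATP5F1A gained) and 6 with array weights (213738_s_at and 209223_at of NDUFA2 gained). Under the trended robust eBayes they were 5, with 200883_at of UQCRC2 gained as higher. With neighbours subtracted, the 2 changed subunits became 0 or 1 with 1 array out. MYOC read 5.09 under quantile normalisation, had an adjusted p of 0.0970 at 7.99 by the Welch test, and read 7.72 to 8.52 with 1 array out. Medians by complex with 1 array out were -0.11 to -0.008 (I), 0.063 to 0.16 (II), -0.032 to 0.047 (III), 0.011 to 0.25 (IV) and -0.095 to -0.018 (V). The complex III median was -0.059 without _x_at and _s_at probe sets, -0.093 with the most variable probe set per gene and -0.067 with neighbours subtracted; the second of these gave 0.17 for complex II and -0.012 for complex V. Of uncalled subunits, NDUFS7 read 0.14 and ATP5F1A 0.030 without _x_at and _s_at probe sets; UQCRC2 read -0.22 and ATP5F1A 0.030 with the most variable probe set; SDHA read -0.043, UQCRC2 -0.050 and ATP5F1A 0.095 with neighbours subtracted; and ATP5MC1 ran from -0.095 (without the second control array) to 0.15 with 1 array out. The cause of these changes was not tested. The alternative that counts NDUFA4 with complex I was not run, since NDUFA4 was not measured. With the most variable probe set, called differences were larger for NDUFS1 (-0.51), ATP5MC3 (-0.49), MDH2 (-0.48) and PPARGC1B (0.46); NDUFS1 and MDH2 had the same values without _x_at and _s_at probe sets. Of the named calls in the other lists, that of PDHB held under the Welch test (adjusted p = 0.0418) and the others did not. The calls of CYCS and MDH2 were lost without the first myocilin array (adjusted p = 0.0688 and 0.0662).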
